A study of Mus musculus with 12 samples.

Results

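The averaged diet effect is the difference between hearts of female C57BL/6 mice kept on a Western diet and hearts of mice kept on a control diet, with postpartum and nonpregnant mice given equal weight. It was computed for each gene on the log2 scale as the mean of the 2 Western diet groups minus the mean of the 2 control diet groups, and it used all 12 of the 12 libraries and 15476 genes that passed a filter on low counts. The 4 groups, of 3 libraries each, were Western diet postpartum hearts, control diet postpartum hearts, Western diet nonpregnant hearts and control diet nonpregnant hearts. The Western diet gave 45% of its energy as fat and 17% as sucrose, and the control diet 10% as fat; sucrose is stated for the Western diet only, so effects of fat and of sucrose cannot be told apart. The mice were wild type and ate their diet for 15 weeks before they were either bred or left unbred. Postpartum hearts were taken 1 day after delivery, and all mice were 27 to 29 weeks old at collection. The series asks whether early metabolic syndrome, induced by this diet, changes how the heart remodels in pregnancy. Each title carries its own number, but no label states that the 3 libraries in each group are from different animals, so p-values refer to the spread of these libraries alone.

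The adult heart draws most of its energy from fatty acids. They are released from circulating lipoproteins by lipoprotein lipase or from stored triglyceride by lipases, pass into the muscle cell with the help of carriers, are activated to acyl-CoA, and enter the mitochondrion through the carnitine shuttle for beta-oxidation. PPAR alpha, a nuclear receptor that binds fatty acids and pairs with RXR, is known to drive many genes of this route in heart and liver. Glucose is used less when fatty acids are abundant, in part because pyruvate dehydrogenase kinases switch off the entry of pyruvate into mitochondria.

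Library totals ran from 22754591 to 29492416 counts. Levels are given as CPM, counts scaled to library size times a TMM scaling factor of 0.962 to 1.045. On library totals without that factor, a count of 0 allows up to 0.102 to 0.132 CPM by counting error alone. Cardiomyocyte markers were high in every library, which fits the labelled tissue (Myh6, the main myosin heavy chain of adult mouse ventricle, had 29119 to 36711 CPM). Control diet postpartum replicate 3 carried transcripts of fat tissue, and there Adipoq, the hormone of fat cells, stood at 19.6 CPM, while none of the remaining 11 libraries exceeded 0.543 CPM. Control diet nonpregnant replicate 1 stood apart from both other libraries of its group: the chi-square of its counts over the degrees of freedom was 15.2 and 14.96, while the other two differed by 3.76. By the same measure Western diet postpartum replicate 2 differed by 12.9 and 11.8 from the other libraries of its group, which differed from each other by 6.49. Without it 378 genes passed the threshold, 194 of them among the genes described here. With both of the control libraries left out, 242 genes passed the threshold, 144 of them among the genes described here. The 13 mitochondrially encoded protein genes and the other genes of the mitochondrial genome took a larger share of counts in Western diet than in control diet libraries, at 21.1 ± 0.59% and 19.3 ± 0.14% in postpartum hearts and at 20.9 ± 0.42% and 20.02 ± 0.24% in nonpregnant hearts (SD, n = 3 each). In bulk tissue, fewer cells of a type and less RNA per cell cannot be told apart.

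Averaged over both pregnancy states, 214 of 15476 genes passed an adjusted p of 0.05 (1.38%), 153 higher on the Western diet (0.989%) and 61 lower (0.394%), by edgeR's quasi-likelihood test with Benjamini-Hochberg adjustment. All 214 had the same sign in postpartum and in nonpregnant hearts, while 8315 of all genes tested did (53.7%). A gene that passes on the mean of both effects is likely to have both on the same side, so this count follows in part from the test. The values of all libraries were separated by diet in both states for 152 of the 214 genes, against 401 of all genes tested (2.59%). That count too follows in part from the test, since the genes were chosen by diet in these same libraries. Effects were mostly small: 28 genes differed by at least 2-fold, 20 higher and 8 lower, and the median log2 fold change was 0.40 for the higher and -0.38 for the lower genes, beside -0.00042 for all genes. Without adjustment 2210 genes had a p under 0.05.

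The size of the changes in each state is given next. Of the 153 higher genes, 117 (76.5%) had the larger change in postpartum hearts, with medians of 0.52 postpartum and 0.31 in nonpregnant hearts. Of the 61 lower genes 37 (60.7%) did, with medians of -0.39 and -0.36. Over all genes tested the share was 54.2%. Tested within 1 state, 136 genes passed in postpartum hearts (0.879%) and 9 in nonpregnant hearts (0.0582%), and these counts do not compare the states with each other. The test of the difference itself, the interaction, called 0 of 15476 genes (0%) in edgeR, where the smallest adjusted p was 0.0987. It called 30 in DESeq2 and 0 in limma-voom. In edgeR 1390 of the 15476 genes had an unadjusted interaction p under 0.05. Among the 214 genes 57 did, 45 of the 153 higher and 12 of the 61 lower, so a larger share of them than of all genes. Across all 15476 genes the postpartum and nonpregnant diet effects had a Pearson correlation of 0.0548, a description of genes that are not independent. The 214 genes lie in the upper right and lower left of the plot that holds both effects.

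**Figure D1:**
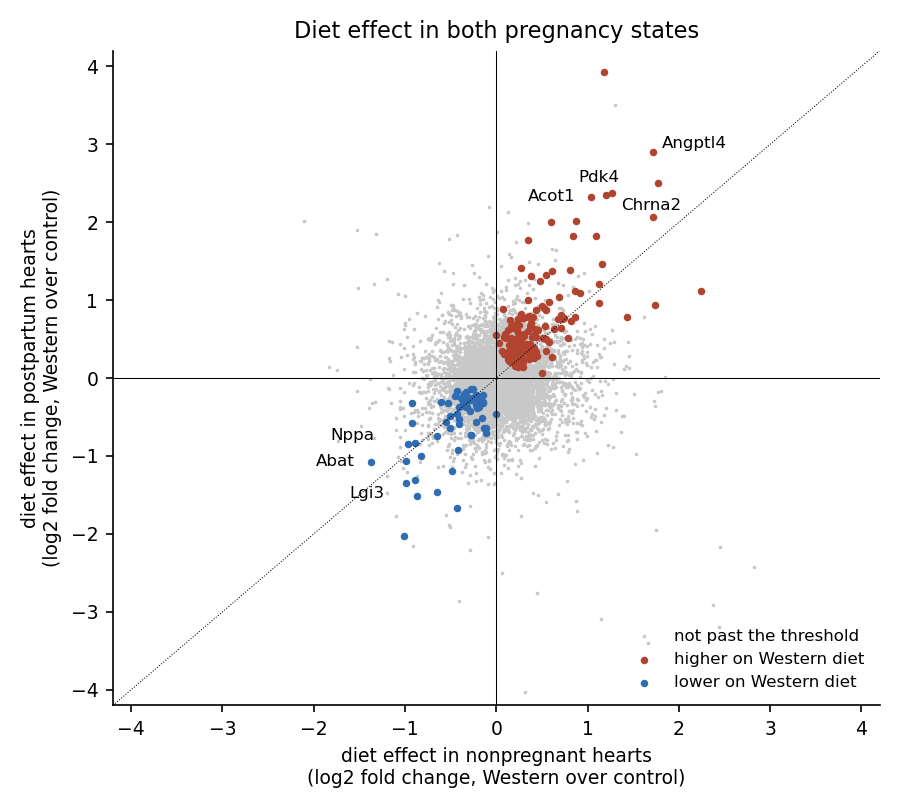
Diet effect of each gene in nonpregnant hearts (x axis) and in postpartum hearts (y axis), both as log2 fold change of Western over control diet; 8 genes lie outside the axes. The 153 genes higher and the 61 genes lower on average sit in the upper right and the lower left, more of the higher ones above the dotted line of equal effects than below it, and the cloud of all genes has no slope to the eye (r = 0.0548).

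Among the genes with the smallest p values was one that acts in peroxisomes. Pex11a (gene at chr7:79735957-79743131, GRCm38, minus strand), a peroxisomal membrane protein that promotes division of peroxisomes, stood at 25.5, 26.1 and 27.5 CPM in Western diet postpartum hearts against 17.5, 17.5 and 16.4 CPM in control diet postpartum hearts, and at 22.8, 24.1 and 26 CPM in Western diet nonpregnant hearts against 17.1, 17.7 and 18.2 CPM in control diet nonpregnant hearts. The groups did not overlap in either state, and the lowest Western diet library lay well above the highest control (averaged log2 fold change 0.54, SE 0.05, adjusted p = 0.000356). It passed also in the contrast of each state, taken from the fit of all 12 libraries. From only the 6 nonpregnant libraries, 0 genes passed.

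The carnitine shuttle and mitochondrial beta-oxidation had the most rises among the lists of cell functions. Of 27 measured genes 10 rose and 0 fell, 25 had the same sign in both states, and the median was 0.24 (0.35 postpartum and 0.15 in nonpregnant hearts), against -0.00042 for all genes. Over all genes tested 1.38% passed, 53.7% had the same sign in both states, and 7721 of 15476 were positive on average. These shares stand beside each list below. Decr1, the reductase needed to oxidise unsaturated fatty acids, stood at 577, 521 and 609 CPM in Western diet postpartum hearts against 371, 431 and 384 CPM on the control diet, and at 475, 466 and 454 CPM in Western diet nonpregnant hearts against 327, 354 and 385 CPM on the control diet. No library overlapped between the diets (averaged log2 fold change 0.46, SE 0.06, adjusted p = 0.0012). Hadha and Hadhb, the 2 subunits of the trifunctional protein that carries out the last steps of long-chain oxidation, rose by nearly the same amount, 0.35 (SE 0.06, adjusted p = 0.0126) and 0.33 (SE 0.05, adjusted p = 0.00417). Hadhb averaged 2007 CPM in Western diet and 1499 CPM in control diet postpartum hearts, and 1791 and 1512 CPM in nonpregnant hearts.

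The other risen members were Acaa2 (0.38), a thiolase, the carnitine carrier Slc25a20 (0.36), Mlycd, which removes the malonyl-CoA that blocks the shuttle (0.33), the isomerases Eci1 (0.29) and Eci2 (0.29), the carnitine transferase Cpt2 (0.29) and the long-chain dehydrogenase Acadl (0.26). The entry enzymes of the shuttle did not pass: Cpt1b, the muscle form, stood at 0.21 (adjusted p = 0.225) and Cpt1a, the liver form, at 0.14 (adjusted p = 0.507). For Cpt1b, 93% of the 50-base windows of its longest transcript also occur in transcripts of another annotated gene, so its count is uncertain. Eci2, Cpt2 and Slc25a20 passed narrowly, at adjusted p values of 0.0454, 0.0491 and 0.0449, and the call of each held in 3 of the 12 fits that left out 1 library. Those of Acaa2, Acadl, Mlycd and Eci1 held in 4, 5, 6 and 8.

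Genes of fatty acid uptake and activation rose in part. Of 22 measured genes 7 rose (31.8%) and 0 fell, and 15 had the same sign in both states (68.2%, against 53.7% of all genes tested). The 7 include Angptl4, described below, which inhibits lipoprotein lipase and so is no uptake protein. The uptake proteins Cd36 (0.36), Slc27a1 (0.40), Fabp3 of heart muscle (0.34) and Fabp4 (0.38), a fatty acid binding protein of fat cells and capillaries, were higher, as was Dbi, which binds acyl-CoA (0.37). The call of Slc27a1 held in all 12 fits that left out 1 library, those of Cd36, Fabp3, Fabp4 and Dbi in 4, 4, 9 and 5. Acsf2, an acyl-CoA synthetase, had 53.7, 48.2 and 64.5 CPM in Western diet postpartum hearts against 31.2, 32.9 and 32.9 CPM on the control diet, and 41.9, 39.7 and 44.3 CPM in Western diet nonpregnant hearts against 33.8, 31.9 and 29.5 CPM on the control diet (averaged log2 fold change 0.59, SE 0.07, adjusted p = 0.000705). Its diets did not overlap, though 37.2% of its 50-base windows recur in a pseudogene. The main cardiac synthetase Acsl1 stood at 0.08 (adjusted p = 0.673) and lipoprotein lipase, Lpl, at 0.05 (adjusted p = 0.803).

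Angptl4, a secreted inhibitor of lipoprotein lipase, had the largest rise among the genes named by fold. It stood at 7.92, 39.9 and 24.9 CPM in Western diet postpartum hearts against 3.47, 3.33 and 2.89 CPM on the control diet, and at 7.86, 10.5 and 21 CPM in Western diet nonpregnant hearts against 6.78, 2.56 and 2.45 CPM on the control diet. The Western diet values were widely spread in postpartum hearts, and the lowest of each state lay above the highest control (averaged log2 fold change 2.31, SE 0.38, adjusted p = 0.0092). Pdk4, the kinase that shuts off pyruvate dehydrogenase, had the same shape. It stood at 481, 2084 and 1048 CPM in Western diet postpartum hearts against 353, 169 and 189 CPM on the control diet, and at 376, 529.9 and 587 CPM in Western diet nonpregnant hearts against 285, 162 and 202 CPM on the control diet (averaged log2 fold change 1.77, SE 0.30, adjusted p = 0.00989). Western diet postpartum replicate 2 was the highest library for both genes. The related kinase Pdk1 rose by 0.28, and these 2 were the ones that passed among 14 genes of pyruvate dehydrogenase and its kinases and phosphatases, whose median was -0.04.

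Acot1 and Acot2, neighbouring genes on chromosome 12 whose products split acyl-CoA in the cytosol and in mitochondria, both rose. Acot1 stood at 43.3, 31 and 70.3 CPM in Western diet postpartum hearts against 10.1, 8.57 and 10.1 CPM on the control diet, and at 24.3, 34 and 26.6 CPM in Western diet nonpregnant hearts against 10.2, 14.8 and 16.6 CPM on the control diet (averaged log2 fold change 1.68, SE 0.18, adjusted p = 0.000522). Acot2 stood at 175, 122 and 238 CPM in Western diet postpartum hearts against 70.5, 78.4 and 66.2 CPM on the control diet, and at 112, 141 and 128 CPM in Western diet nonpregnant hearts against 72, 94 and 95.2 CPM on the control diet (averaged log2 fold change 0.93, SE 0.13, adjusted p = 0.00416). Diets were separated in both states for both genes, and the library order inside each Western diet group was the same for both. They share sequence, 17.6% of the 50-base windows of Acot1 occurring in Acot2 and 24.5% of those of Acot2 in Acot1, so part of either count may belong to the other. The other 9 measured thioesterases did not pass.

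**Figure D2:**
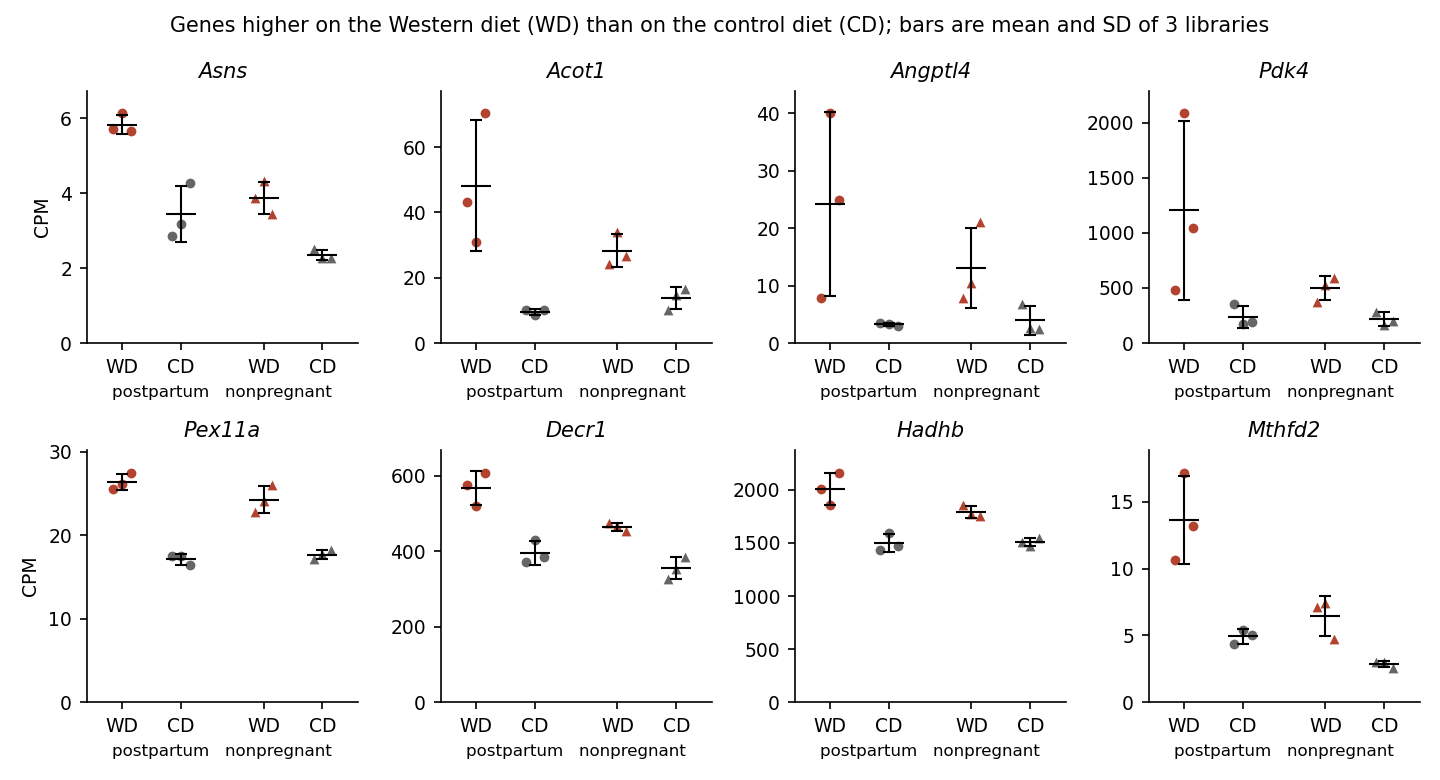
CPM (y axis, linear from 0) of 8 genes higher on the Western diet (WD) than on the control diet (CD), in postpartum and nonpregnant hearts; each point is a library, and the bars are the mean and SD of 3. In all 8 panels the WD libraries lie above the CD libraries of the same state, with the wider spread in postpartum WD hearts for Acot1, Angptl4 and Pdk4.

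Peroxisomes, lipid droplets and lipid synthesis changed in single members. Of 45 measured peroxisome genes 4 rose: Pex11a, Ech1, a peroxisomal and mitochondrial isomerase (0.40), catalase Cat, which breaks down the peroxide that peroxisomal oxidation makes (0.38), and Pxmp4 (0.25), whose call held in 5 of the 12 fits that left out 1 library. The list's median was 0.03. Cat itself stood at 0.62 in postpartum and 0.13 in nonpregnant hearts (edgeR interaction, adjusted p = 0.377). Of 30 genes of lipid droplets and triglyceride turnover 4 rose, and 3 of these are lipases that act in sequence on stored triglyceride: Pnpla2 (0.48), Lipe (0.55) and Mgll (0.28), whose calls held in 8, 12 and 5 of the 12 fits that left out 1 library. For Pnpla2 the log2 fold change stood at 0.89 in postpartum and 0.07 in nonpregnant hearts (edgeR interaction, adjusted p = 0.357), so the size of its average comes mostly from the postpartum hearts, though the difference between states did not pass. The fourth was Mttp, which loads lipid onto apolipoprotein B (0.53). Plin2, a droplet coat protein, stood at 0.35 (adjusted p = 0.0721). Of 47 genes of sterol and fatty acid synthesis 2 rose, the desaturase Scd4 (1.44) and malic enzyme Me1 (0.30, held in 6 of the 12 such fits), and the median was -0.10. The desaturase Scd1 stood at -1.63 (adjusted p = 0.138) and fatty acid synthase Fasn at -1.21 (adjusted p = 0.187). In control diet postpartum replicate 3, the library with fat tissue transcripts, Scd1 had 193 CPM and Fasn 209 CPM, while the other 11 libraries held 9.76 to 17.95 CPM of Scd1 and 19.9 to 33.4 CPM of Fasn. Without that library both genes passed as lower on the Western diet, Scd1 at -0.57 (adjusted p = 0.00679) and Fasn at -0.35 (adjusted p = 0.0393).

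The lists of glucose transport and glycolysis and of PPAR, ERR and PGC-1 regulators had no member past the threshold in edgeR. None of 29 genes of glucose transport and glycolysis passed in edgeR (5 at an unadjusted p under 0.05, 1 in DESeq2). The insulin-dependent carrier Slc2a4 stood at -0.24 (adjusted p = 0.057) and Slc2a1, the basal carrier, at -0.13 (adjusted p = 0.495). Fbp2, the muscle fructose-bisphosphatase, which runs against glycolysis and is not on that list, rose by 0.86 (SE 0.10, adjusted p = 0.0012), with separate ranges of 36.7 to 54.6 CPM in Western diet and 20.3 to 25.6 CPM in control diet postpartum hearts, and of 35.7 to 39.7 CPM and 19.6 to 28.5 CPM in nonpregnant hearts. None of 22 PPAR, ERR and PGC-1 regulators passed in edgeR (6 at an unadjusted p under 0.05, 1 in DESeq2). Ppara itself stood at -0.19 (adjusted p = 0.307) and the coactivator Ppargc1a at 0.10 (adjusted p = 0.692). Ucp3, an inner-membrane carrier raised by fatty acids, stood at 1.08 (adjusted p = 0.0668), with Western diet postpartum replicate 2 at 168 CPM and the other 2 of its group at 33.9 and 68.5 CPM, while its relative Ucp2 rose by 0.34.

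Promoters of some of these genes are shown to let the windows of co-rising genes be read. Each line gives the 300 bases from 250 before to 50 after the annotated start, 5′ to 3′ on the gene's strand, from RefSeq on GRCm38.p6; capitals mark the PPAR half-site AGGTCA or the E-box CACGTG, searched on both strands. The windows are Pex11a at chr7:79743082-79743381 (minus strand), Acot1 at chr12:84009252-84009551 (plus), Acot2 at chr12:83987611-83987910 (plus), Hadhb at chr5:30155003-30155302 (plus) and Cat at chr2:103485104-103485403 (minus). The Hadhb window shares 228 bases with that of Hadha, which is read from the opposite strand, and Cat holds a half-site at -204.
Pex11a: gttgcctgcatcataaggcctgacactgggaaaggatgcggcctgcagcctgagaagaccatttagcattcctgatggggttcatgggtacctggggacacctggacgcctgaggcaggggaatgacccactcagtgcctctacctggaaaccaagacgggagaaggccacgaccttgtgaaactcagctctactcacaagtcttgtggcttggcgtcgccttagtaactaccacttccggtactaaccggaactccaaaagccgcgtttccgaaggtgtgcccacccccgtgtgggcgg
Acot1: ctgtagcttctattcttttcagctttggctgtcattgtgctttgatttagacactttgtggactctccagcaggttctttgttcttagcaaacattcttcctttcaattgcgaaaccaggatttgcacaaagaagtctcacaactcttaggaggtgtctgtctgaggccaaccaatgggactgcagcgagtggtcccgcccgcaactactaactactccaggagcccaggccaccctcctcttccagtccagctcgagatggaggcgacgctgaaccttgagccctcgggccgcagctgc
Acot2: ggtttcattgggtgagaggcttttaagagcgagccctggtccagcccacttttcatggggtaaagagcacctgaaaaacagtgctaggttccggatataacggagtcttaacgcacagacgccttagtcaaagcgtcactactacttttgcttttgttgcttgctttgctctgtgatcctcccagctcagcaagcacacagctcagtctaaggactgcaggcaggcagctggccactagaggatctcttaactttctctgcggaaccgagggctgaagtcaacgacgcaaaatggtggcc
Hadhb: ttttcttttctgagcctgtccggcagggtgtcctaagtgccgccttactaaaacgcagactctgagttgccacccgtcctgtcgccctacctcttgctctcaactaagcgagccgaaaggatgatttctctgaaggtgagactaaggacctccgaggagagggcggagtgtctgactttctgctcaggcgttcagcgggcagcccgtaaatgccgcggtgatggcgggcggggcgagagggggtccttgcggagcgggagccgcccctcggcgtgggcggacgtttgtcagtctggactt
Cat: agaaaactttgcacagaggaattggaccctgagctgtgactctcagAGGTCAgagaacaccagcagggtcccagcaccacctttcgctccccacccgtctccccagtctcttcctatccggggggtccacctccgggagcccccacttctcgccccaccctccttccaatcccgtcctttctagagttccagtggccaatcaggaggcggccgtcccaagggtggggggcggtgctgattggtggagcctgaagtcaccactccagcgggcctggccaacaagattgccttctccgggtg

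Such windows held the half-site in 10.6% of the 160 RefSeq promoters matched to 119 of the 153 higher genes, in 17.5% of the 63 promoters matched to 44 of the 61 lower genes, and in 16.3% of all 32851 promoters. The direct repeat AGGTCANAGGTCA, the form to which PPAR and RXR bind as a pair, was found in none of the promoters of higher or lower genes and in 0.0396% of all. An E-box was found in 9.38% of the higher, 9.52% of the lower and 7.15% of all promoters. These are matches of letters in a short window and say nothing of what binds there.

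A second group of rises lay on a list of genes of the ATF4 response and of serine and one-carbon synthesis. The ATF4 response is a program that raises amino acid and one-carbon enzymes when mitochondria or protein synthesis are stressed. ATF4 activity itself was not tested. Of 34 measured genes 7 rose (20.6%) and 0 fell, and the median was 0.18. The same sign in both states was seen for 23 (67.6%, against 53.7% of all genes tested). Mthfd2, the mitochondrial one-carbon enzyme, stood at 10.6, 17.2 and 13.1 CPM in Western diet postpartum hearts against 4.32, 5.43 and 5.03 CPM on the control diet, and at 7.13, 7.46 and 4.75 CPM in Western diet nonpregnant hearts against 3, 3.03 and 2.59 CPM on the control diet (averaged log2 fold change 1.31, SE 0.14, adjusted p = 0.000522). The diets did not overlap, and the same held for Asns, asparagine synthetase. Asns stood at 5.72, 6.13 and 5.65 CPM in Western diet postpartum hearts against 2.86, 3.18 and 4.29 CPM on the control diet, and at 3.86, 4.32 and 3.45 CPM in Western diet nonpregnant hearts against 2.5, 2.27 and 2.27 CPM on the control diet (averaged log2 fold change 0.74, SE 0.11, adjusted p = 0.00709). The transcription factors Atf4 (0.28), Atf5 (0.44) and Cebpg (0.18), the pseudokinase Trib3 (0.52) and Phgdh, which opens serine synthesis (0.76), were also higher. The calls of Phgdh, Trib3 and Cebpg held in 2, 2 and 0 of the 12 fits that left out 1 library, and those of Atf4 and Atf5 in fewer than 12. The libraries of Atf4 and of Atf5 overlapped between the diets in nonpregnant hearts. Psat1, the next enzyme of serine synthesis, stood at 0.33 (adjusted p = 0.328), the stress hormone Gdf15 at 0.36 (adjusted p = 0.643), and none of 20 endoplasmic reticulum chaperones passed in edgeR or DESeq2, with 8 lower at an unadjusted p under 0.05. The chaperones had a median of -0.12, at -0.22 in postpartum and 0.03 in nonpregnant hearts, with 8 of 20 of the same sign in both states. Relative to the mean of all libraries they stood at a median of -0.08, 0.06 and 0.42 (log2) in the 3 control diet postpartum libraries. The averaged median was -0.06 without the highest of these, replicate 3.

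**Figure D3:**
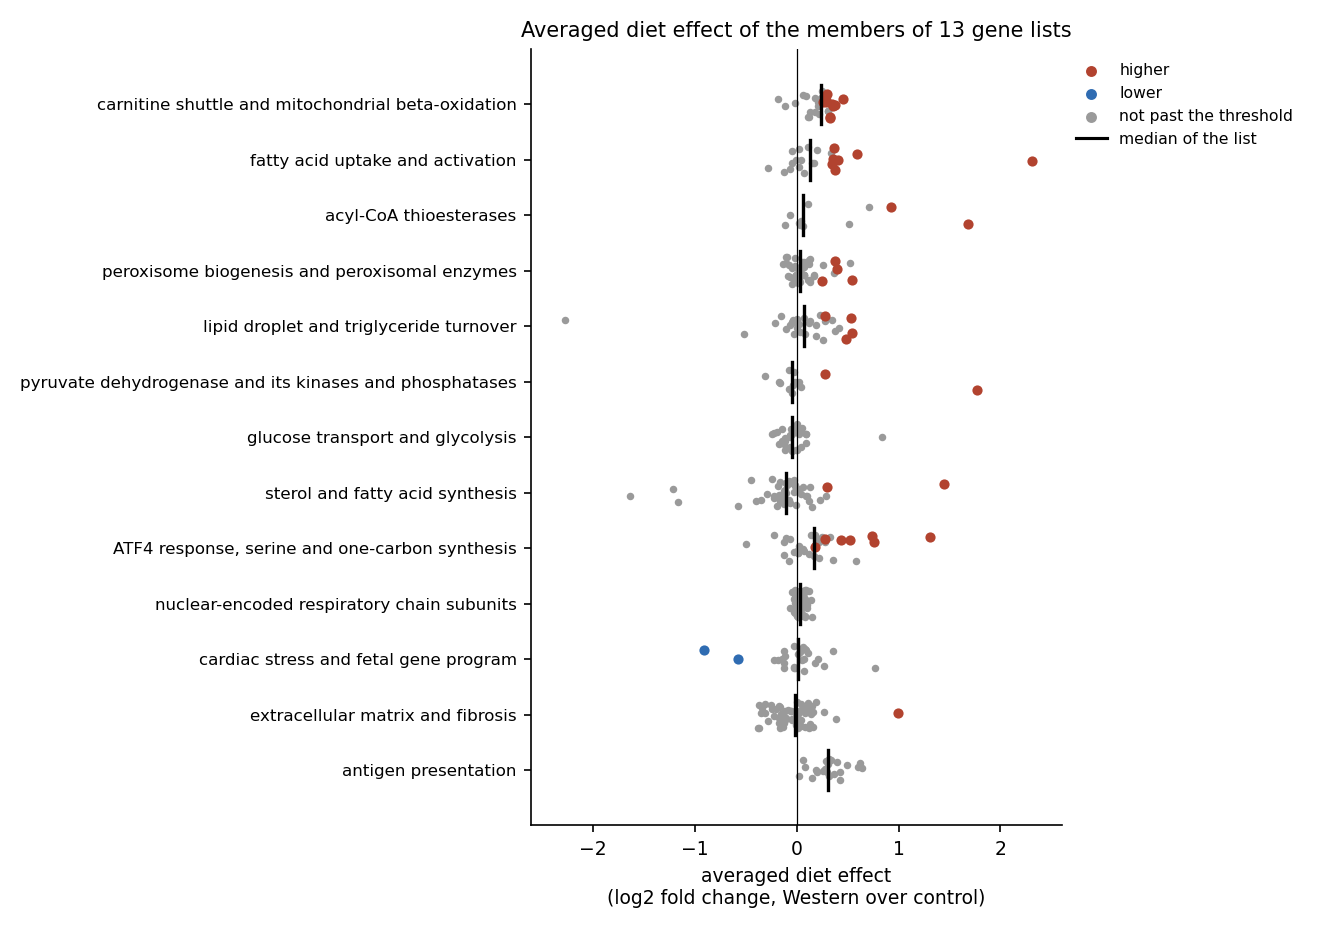
Averaged diet effect (x axis, log2 fold change of Western over control diet) of each measured member of 13 gene lists; coloured points passed the test and black bars are list medians. Beta-oxidation shows 10 risen members and a median of 0.24, while the medians of pyruvate dehydrogenase and glycolysis lie near 0, with Pdk4 far to the right.

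The falls with the smallest p values included Lgi3, Ndrg4, Lrrc4b and Abat. Lgi3 (chr14:70530821-70538323, plus strand), a secreted leucine-rich protein of nervous tissue, had 1.43, 1.27 and 1.28 CPM in Western diet postpartum hearts against 4.05, 2.95 and 3.12 CPM on the control diet, and 1.72, 1.36 and 1.44 CPM in Western diet nonpregnant hearts against 2.96, 3.32 and 2.68 CPM on the control diet (averaged log2 fold change -1.17, SE 0.13, adjusted p = 0.000634). Lrrc4b, a synaptic adhesion protein, had 5.8, 8.84 and 6.38 CPM in Western diet postpartum hearts against 12.9, 12.8 and 16.2 CPM on the control diet, and 11.1, 8.52 and 8.87 CPM in Western diet nonpregnant hearts against 17.5, 17.2 and 15.5 CPM on the control diet (averaged log2 fold change -0.91, SE 0.11, adjusted p = 0.000927). Both genes are low and were separated by diet in both states. Abat, the transaminase that degrades GABA, had 9.68, 4.33 and 5.39 CPM in Western diet postpartum hearts against 12.4, 16.3 and 12.7 CPM on the control diet, and 10.8, 6.55 and 9.86 CPM in Western diet nonpregnant hearts against 24, 23.2 and 23.2 CPM on the control diet (averaged log2 fold change -1.23, SE 0.16, adjusted p = 0.00252). Its 3 nonpregnant control libraries lay close together and above all other libraries. Ndrg4, which in zebrafish is needed for heart muscle growth, fell by 0.56 (SE 0.06, adjusted p = 0.000851), to between 202 and 238 CPM in Western diet hearts against 269 to 375 CPM in control diet hearts.

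Of 20 measured markers of Schwann cells and neurons, 1 rose, Stmn2 (0.36), and 0 fell. The call of Stmn2 held in 0 of the 12 fits that left out 1 library. The summed level of these markers ran from 70.7 to 78.5 CPM in Western diet and from 66.1 to 76.02 CPM in control diet libraries. The other genes that fell by the smallest p values were Adgrb2, an adhesion receptor (-0.87), the endocytic adaptor Ston2 (-0.84), the growth factor Fgf16 (-0.51), Plekhh1 (-1.19), Tmem35a, a chaperone of nicotinic receptors (-0.67), Cenpf, a kinetochore protein that is one of 42 cell cycle genes measured and the one that passed (-0.70), brain-type creatine kinase Ckb (-0.38), the kinase Wnk1 (-0.25), Pm20d2 (-0.29) and Dpysl3 (-0.35). Adcy1, an adenylyl cyclase, fell by 1.02, a call that held in 4 of the 12 fits that left out 1 library. Ckb was the one of 10 creatine genes that passed and Smtn the one of 16 markers of smooth muscle and pericytes. Their log2 fold changes were -0.64 and -0.46 in postpartum and -0.11 and -0.00 in nonpregnant hearts. The call of Ckb held in all 12 fits that left out 1 library and that of Smtn in 3.

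Nppa (chr4:148000722-148002079, plus strand), the atrial natriuretic peptide, a marker of wall stress in ventricles and abundant in atria, was lower on the Western diet. It stood at 42.3, 61 and 51.8 CPM in Western diet postpartum hearts against 84.4, 95.5 and 98.9 CPM on the control diet, and at 33, 28.5 and 54.3 CPM in Western diet nonpregnant hearts against 86.3, 78.1 and 61.6 CPM on the control diet (averaged log2 fold change -0.91, SE 0.14, adjusted p = 0.00714). The diets did not overlap in either state, and the call held in each of the 12 fits that left out a library. Since atrial tissue is rich in Nppa, the other atrial markers were set beside it. Nppa was the one of 6 measured that passed, the others ranged from -0.21 (Kcnj3) to 0.11 (Myl4), and the summed level of the atrial list without Nppa ran from 87.9 to 111 CPM in Western diet and from 90.3 to 124 CPM in control diet libraries, which overlap. Nppb, its ventricular counterpart, stood at 622, 129.8 and 406 CPM in Western diet postpartum hearts against 166, 288 and 297 CPM on the control diet, and at 85.1, 67.6 and 128 CPM in Western diet nonpregnant hearts against 147, 101 and 72.1 CPM on the control diet; its groups overlapped in both states (0.21, adjusted p = 0.817). Of 27 genes of cardiac stress and the fetal program, Nppa and the slow skeletal troponin Tnnt1 (-0.57) fell and 0 rose. Myh7, Acta1 and Myh6 stood at -0.02, 0.77 and -0.12, with adjusted p values of 0.878, 0.215 and 0.254.

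Ion channel and gap junction genes leaned to lower values, and 1 rose and 2 fell past the threshold. Of 38 measured, 29 had a negative average, beside 7755 of all 15476 genes, and 29 the same sign in both states (76.3%, against 53.7%). Their median was -0.17, and 16 were lower and 1 higher at an unadjusted p under 0.05. Among all genes tested 1061 were lower and 1149 higher at that p. Gja1, connexin 43 of the gap junctions between ventricular cells, stood at 294, 249 and 280.1 CPM in Western diet postpartum hearts against 298, 401 and 435 CPM on the control diet, and at 283, 294 and 294 CPM in Western diet nonpregnant hearts against 419.9, 369 and 385 CPM on the control diet (averaged log2 fold change -0.45, SE 0.08, adjusted p = 0.0135). In postpartum hearts the lowest control and the highest Western diet library nearly touch, while the nonpregnant groups lie far apart. Cacna1h, a T-type calcium channel, fell by 0.46. In the other direction Scn4b, the sodium channel beta 4 subunit, stood at 64.6, 80.4 and 81.3 CPM in Western diet postpartum hearts against 42.4, 41.9 and 47.4 CPM on the control diet, and at 79.1, 82.5 and 107 CPM in Western diet nonpregnant hearts against 45.7, 48.7 and 53.6 CPM on the control diet (averaged log2 fold change 0.82, SE 0.08, adjusted p = 0.000522).

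**Figure D4:**
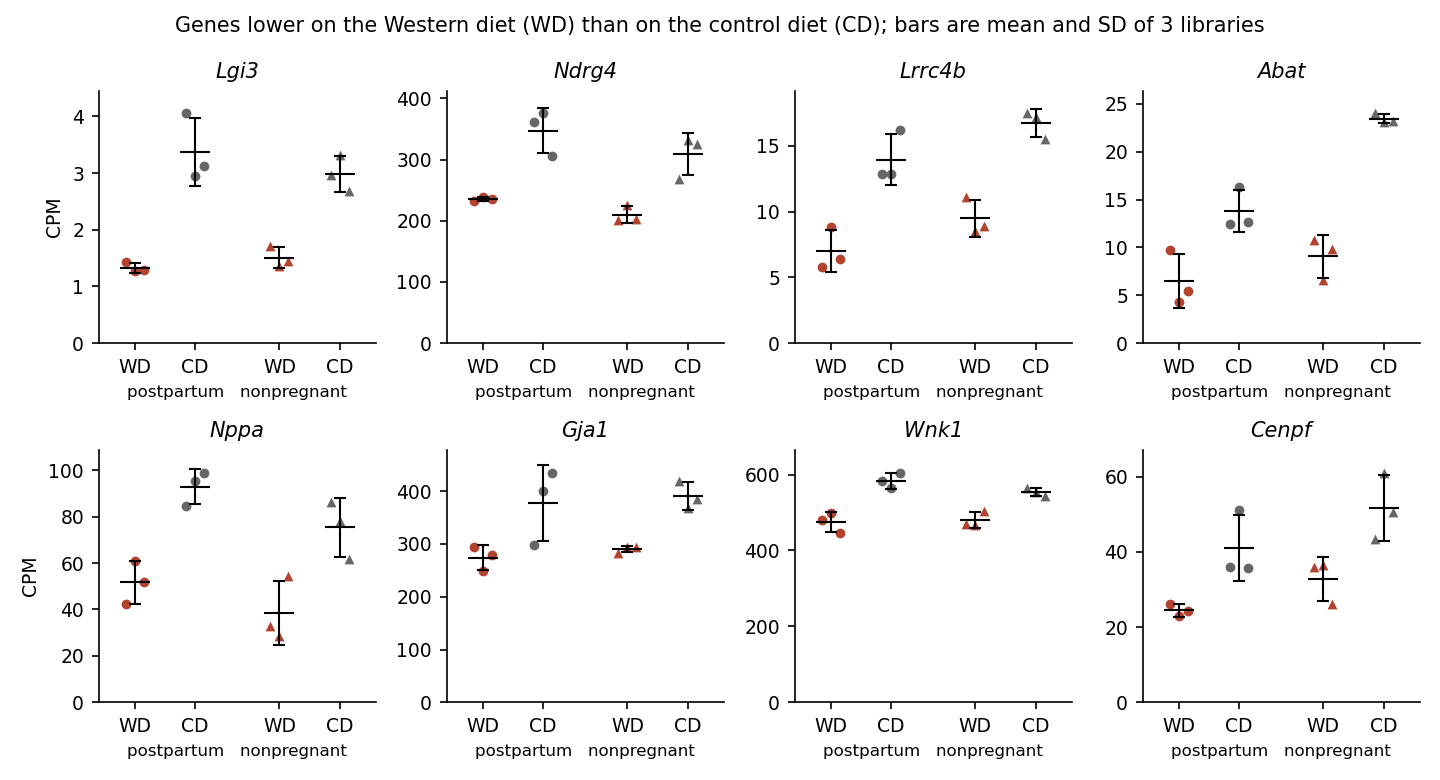
CPM (y axis, linear from 0) of 8 genes lower on the Western diet (WD) than on the control diet (CD), in postpartum and nonpregnant hearts; each point is a library, and the bars are the mean and SD of 3. In all 8 panels the WD libraries lie below the CD libraries of the same state, most narrowly for Gja1 in postpartum hearts.

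The remaining genes with the smallest p values among the rises were Lims2, a focal adhesion adaptor (0.40), the alcohol dehydrogenase Adh1, which also oxidises retinol (0.77), Plbd1 (0.42), the nicotinic receptor subunit Chrna2 (1.82), Lgals4, a galectin (0.86), and mt-Te (0.32), a transfer RNA of the mitochondrial genome. Timp4, a cardiac inhibitor of matrix proteases, rose by 0.99 and was the one of 61 extracellular matrix genes that passed (1.64%, against 1.38% of all genes tested). The matrix list as a whole had a median of -0.18 in postpartum and 0.12 in nonpregnant hearts, and Col1a1, a type I collagen chain, stood at -0.55 and 0.21 there. Serpina3g, a serine protease inhibitor with 16% of its 50-base windows in other genes, rose by 1.89 at levels of at most 3.65 CPM. The mTOR inhibitor Deptor (0.31), the autophagy gene Gabarapl1 (0.33), the cytokine receptor Osmr (0.49), the chemokine Cxcl14 (0.67) and superoxide dismutase Sod1 (0.25) were the other risen members of their lists. Their calls held in 12, 11, 9, 4 and 2 of the 12 fits that left out 1 library, in that order. Their log2 fold changes were 0.52, 0.57, 0.75, 0.64 and 0.36 in postpartum hearts. In nonpregnant hearts they were 0.11, 0.10, 0.24, 0.71 and 0.15, in the same order.

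Ribosomal protein genes leaned one way by small amounts. Of 48 measured, 47 were positive on average and 46 had the same sign in both states (95.8%, against 53.7% of all genes tested). The median was 0.11, and 1 passed in edgeR (2.08%), Rps19 (0.19), against 10 in DESeq2. At an unadjusted p under 0.05, 36 were higher and 0 lower. All 13 mitochondrially encoded protein genes were positive (median 0.10), 10 with the same sign in both states, and mt-Nd4 (0.20) and mt-Nd2 (0.20) rose, beside the larger mitochondrial share of counts in the Western diet libraries. The calls of Rps19, mt-Nd4 and mt-Nd2 held in 3, 4 and 3 of the 12 fits that left out 1 library. For mt-Nd4, 62.2% of its 50-base windows recur in another annotated gene, a copy in the nuclear genome. None of the 76 nuclear-encoded respiratory chain subunits passed in edgeR or DESeq2 (4 at an unadjusted p under 0.05), and 61 of them were positive (median 0.04). None of the 17 genes of the tricarboxylic acid cycle, the 31 proteasome subunits and the 26 cytosolic heat shock proteins passed in edgeR or DESeq2 either, with 0, 6 and 1 at an unadjusted p under 0.05. Of 21 circadian clock genes 0 passed in edgeR and 1 in DESeq2, with 5 at an unadjusted p under 0.05.

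Markers of the cell types of the heart differed by small amounts, and the summed endothelial markers were separated by diet in both states. None of 19 cardiomyocyte markers passed in edgeR or DESeq2 and 5 were lower at an unadjusted p under 0.05. All 19 were below 0 on average (median -0.09), and 10 had the same sign in both states (52.6%, against 53.7% of all genes tested). Their median was -0.04 in postpartum and -0.10 in nonpregnant hearts. Their summed level ran from 103959 to 106839 CPM in Western diet and from 101028 to 113418 CPM in control diet postpartum hearts, which overlap. It ran from 103767 to 107661 CPM in Western diet and from 108187 to 120977 CPM in control diet nonpregnant hearts, which do not overlap. Of 18 endothelial markers 4 rose, Ly6c1 (0.52), the junction protein Cldn5 (0.48), the receptor Tie1 (0.22) and Pecam1 (0.21), and 17 were positive (median 0.12). Their summed level ran from 1955 to 2297 CPM in Western diet and from 1832 to 1938 CPM in control diet postpartum hearts. In nonpregnant hearts it ran from 2078 to 2152 CPM on the Western diet and from 1883 to 1988 CPM on the control diet. No library overlapped between the diets within a state. The calls of Ly6c1, Cldn5, Tie1 and Pecam1 held in 11, 4, 3 and 6 of the 12 fits that left out 1 library. Fabp4 and Cd36 are made in capillary cells as well, Cd36 also in muscle, and the part of the endothelial markers in their rise was not tested. None of the 16 fibroblast, 20 macrophage, 11 lymphocyte and 4 neutrophil markers passed in edgeR, with 3, 1, 0 and 1 at an unadjusted p under 0.05 and 1, 0, 0 and 0 past DESeq2. None of 9 erythroid, 8 brown adipocyte, 8 skeletal muscle and 4 mesothelial markers passed in edgeR or DESeq2, with 0, 3, 1 and 0 at an unadjusted p under 0.05. Of 10 white adipocyte markers, Lipe and Fabp4 rose, and the list's median of -1.93 became -0.18 without control diet postpartum replicate 3.

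**Figure D5:**
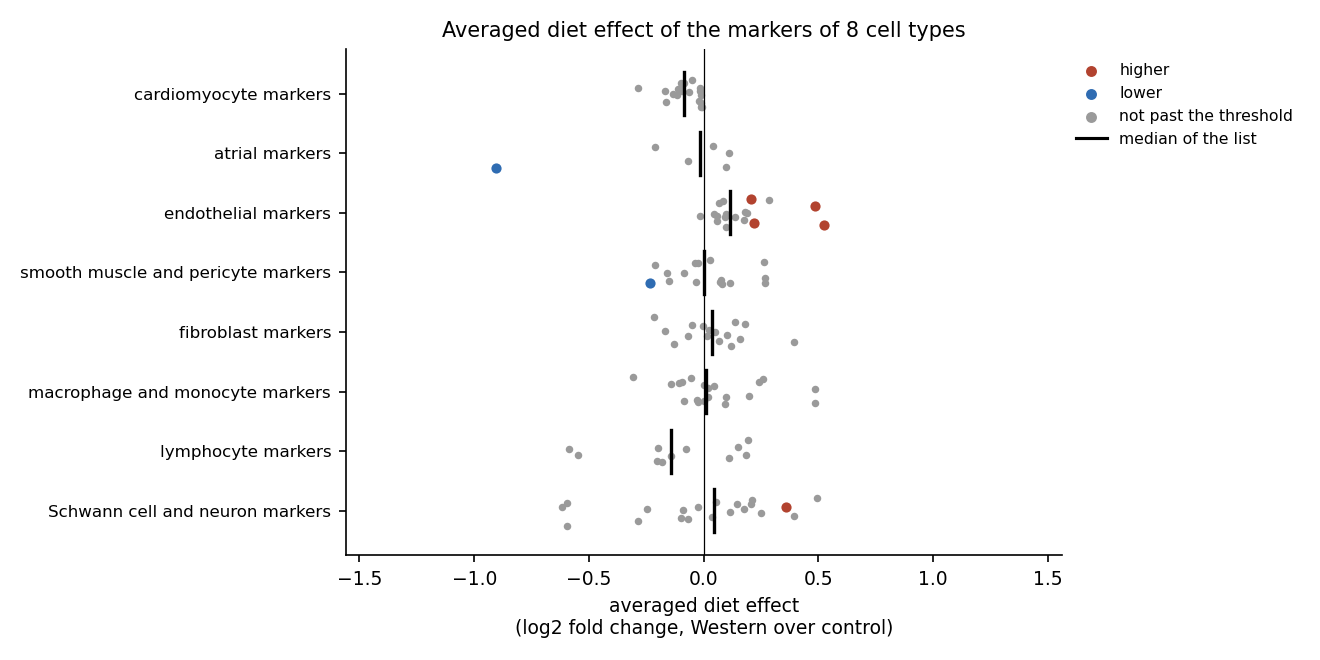
Averaged diet effect (x axis, log2 fold change of Western over control diet) of each measured marker of 8 cell types; coloured points passed the test and black bars are list medians. All 19 cardiomyocyte markers lie left of 0 and 17 of 18 endothelial markers right of it, by small amounts, and Nppa is the low atrial marker.

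Interferon and antigen presentation genes had positive averages, with medians near 0 in postpartum and above it in nonpregnant hearts. All 22 antigen presentation genes were positive on average, yet 9 had the same sign in both states: the median was -0.01 in postpartum and 0.64 in nonpregnant hearts. Of 34 interferon-stimulated genes 32 were positive, 14 with the same sign in both states, at medians of -0.02 and 0.49. None of either list passed in edgeR on average, in either state or in the interaction; on average 6 and 8 had an unadjusted p under 0.05, and DESeq2 called 1 and 3. Relative to the mean of all libraries, the antigen presentation genes stood at a median of 1.12, 0.29 and -0.10 (log2) in the 3 Western diet nonpregnant libraries and at 0.24, -0.23 and -0.48 in their controls, the highest being Western diet nonpregnant replicate 1. Without Western diet nonpregnant replicate 1 the averaged median was 0.11, against 0.31 with it.

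Leaving out 1 library changed how many genes passed, while each of the 214 genes kept its direction. The count was 378 without Western diet postpartum replicate 2. It was 83 and 115 without Western diet nonpregnant replicates 2 and 3, 100 without control diet nonpregnant replicate 2, 135 and 106 without Western diet postpartum replicates 1 and 3, 127 without control diet postpartum replicate 1, and between 144 and 248 without any of the others. All 12 such fits called 76 of the 214 genes, among them 45 of the 71 genes named by rule that passed. The genes that held include Pex11a, Acot1, Acot2, Angptl4, Pdk4, Decr1, Hadha, Hadhb, Cat, Mthfd2 and Asns among the rises and Lgi3, Ndrg4, Lrrc4b, Abat, Nppa, Gja1 and Wnk1 among the falls. Those that lost the call in at least 1 of these fits include Atf4, Atf5, Ucp2, Serpina3g, Cacna1h and Tnnt1.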

How the data were processed

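The deposited files hold raw read counts per gene, 1 file per heart library, with no normalization, per the file headers. Per the labels' protocols, the kits were Qiagen RNeasy for RNA and NEBNext Ultra RNA for the libraries. The submitters' processing notes name FastQC, STAR 2.5.2b, featureCounts and Subread 1.5.2, and the builds GRCm38 and mm10. Neither the strand setting of the counting nor its annotation release is given in the sources used here; overlapping genes and close copies can share counts. Column headers name the Western diet libraries with other letters than the titles, which the labels do not explain; groups were taken from the titles. Gene coordinates are the extents of the exons in the files, and symbols come from a table of mouse gene identifiers; 345 of 49315 identifiers had no symbol.

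All 12 libraries were fitted in 1 edgeR 4.0.16 quasi-likelihood model (R 4.3.3) with a mean per group, TMM scaling and filterByExpr by group (minimum count 10, minimum total 15). The contrasts were diet averaged over pregnancy states, diet in each state and the interaction, each two-sided, with p-values adjusted by Benjamini-Hochberg over the 15476 genes and a threshold of 0.05. Standard errors were obtained by dividing the log2 fold change by the root of F. The common biological coefficient of variation was 9.62%. The floors given for a count of 0 cover counting error only, while the standard errors and SDs include the spread between libraries. Reads carry no molecular identifiers. The procedure was tested on simulated data.

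The genes named are those past the threshold, of the same sign in both states, at 1 CPM or more in the higher diet and with a proper symbol: the 15 rising and 15 falling with the smallest p, the 5 in each direction with the largest fold, up to 4 members of each of 44 gene lists, and a panel of 22 cardiac and metabolic genes reported whatever their result. Of that panel, Fgf21 had too few counts to be tested. A few genes that the rule names are not reported here. Further members of the lists are named as examples, chosen after their values were seen. The comparison, the lists and the rule were chosen with earlier results of these data known.

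Alternatives were DESeq2 1.42.0, limma-voom (limma 3.58.1), a filter of 1 CPM in 3 libraries, no filter, the robust option of edgeR, scaling by DESeq2's size factors, totals that leave out mitochondrial genes, an additive model, fits within 1 state, and libraries left out.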

Additional observations from a re-analysis of the deposited data

How the results depend on the processing

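Each of the 214 genes kept its sign on average under all 21 alternatives that tested it, and 72 passed under all of them. Of the 71 genes named by rule that passed, 41 did so under all alternatives. Angptl4, which held with each library left out, passed under 19 of the 21. The averaged count of 214 was 1029 with no filter on low counts (579 higher, 450 lower) and 465 in DESeq2 (296 and 169), and ran from 83 to 378 with 1 library left out. The other alternatives gave 174 to 248; with both control libraries that stand apart left out, 57% of the calls were higher, against 71.5%. The count with 1 sign in both states was 933 with no filter and 460 in DESeq2, and 83 to 355 with 1 library left out. The postpartum count of 136 was 1048 with no filter, 437 in DESeq2 and 71 from the 6 postpartum libraries alone, and 30 to 490 with 1 library left out. The nonpregnant count of 9 was 454 with no filter, 5 with the filter of 1 CPM, 89 in DESeq2, 15 without both control libraries and 0 from the 6 nonpregnant libraries alone, and 0 to 18 with 1 library left out. The interaction count of 0 was 506 with no filter, 1 with the robust option, 30 in DESeq2 and 1 without both control libraries, and 0 to 53 with 1 library left out. The cause of these shifts was not tested. Nppb reversed, ranging from -0.049 without Western diet postpartum replicate 1 to 0.42, and Myh7 stood at 0.0095 without both control libraries; neither passed. The white adipocyte median of -1.93 was 0.11 with the filter of 1 CPM. No paired analysis was possible because the titles carry a number of each library's own and no number recurs across groups. Depth limits genes under about 1 CPM, whose calls rest on few reads.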

Other observations

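The genes of this section were chosen after their values were seen, from the 214 that passed. They are single genes outside the lists, and how many genes of like function did not pass was not counted. Adh1 and the retinaldehyde dehydrogenase Aldh1a1 (0.44), which act on retinoids, rose on the Western diet, as did the retinol saturase Retsat (0.54). The flavin monooxygenases Fmo1 (0.48) and Fmo2 (0.58), the soluble epoxide hydrolase Ephx2 (0.55), the purine enzyme xanthine dehydrogenase Xdh (0.60), the cytochrome Cyp4b1 (0.47) and the aldehyde oxidase Aox1 (0.32) rose too. Ephx2 averaged 378 ± 56.8 CPM in Western diet and 221 ± 14.8 CPM in control diet postpartum hearts, and 303 ± 8.72 and 241 ± 42.9 CPM in nonpregnant hearts on those diets (SD, n = 3 each). Among the genes that fell were N-cadherin Cdh2 (-0.18), ankyrin Ank2 (-0.22), the sarcoglycan Sgcd (-0.29), the muscarinic receptor Chrm2 (-0.36) and Bche, which splits choline esters (-0.35). The calls of Cdh2 and Ank2 held in 2 and 1 of the 12 fits that left out 1 library, those of Aox1, Fmo2, Bche, Chrm2 and Sgcd in 4, 5, 7, 7 and 8, and those of Ephx2, Aldh1a1, Retsat, Fmo1, Xdh and Cyp4b1 in all 12.

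Some genes that rose together are neighbours. Among the 214 genes there were 13 pairs within 25 kb of each other, 12 of them with both genes on the same side, and 1 pair whose annotated extents overlap, Kank3 and Rps28. Pairs were not counted over all genes tested, and 153 of the 214 genes were higher, so many pairs would share a side in any case. Hadha and Hadhb start 85 bases apart on chromosome 5 on opposite strands. Elmod3 and Retsat, also on opposite strands, lie 61 bases apart on chromosome 6. Acot2 and Acot1 lie 15628 bases apart on chromosome 12, and Fmo1 and Fmo2 lie 7706 bases apart on chromosome 1, each pair on 1 strand. Ech1 ends 1606 bases before Lgals4 begins, on the same strand of chromosome 7, and both rose, by 0.40 and 0.86. Ephx2 and Chrna2 lie 10538 bases apart on chromosome 14, and Chrna2, a receptor subunit of neurons, rose by 1.82 next to Ephx2, which rose by 0.55. Whether reads of one gene of such a pair were counted for the other was not tested, and the strand setting of the counting is not given in the sources used here.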
